A study of Mus musculus with 18 samples.

Results

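The 10 genes described here encode the myogenic regulatory factors *Myod1*, *Myf5* and *Myog*, the MEF2 factors *Mef2a*, *Mef2c* and *Mef2d*, the serum response factor *Srf*, and the SRF coactivators *Myocd*, *Mrtfa* and *Mrtfb* (earlier *Mkl1* and *Mkl2*). They were taken as the rows of the polyA and rRNA-depleted count tables whose Entrez identifiers map to these symbols. All 10 had a row in both tables, out of 24100 gene rows in each. RNA came from C3H/10T1/2 cells, a mouse mesenchymal progenitor cell (MPC) line, in normal culture medium. *Atrx* WT carried an empty Cas9 vector, and the *Atrx* knockout (KO) lines were the clone G7, made with the guide sg5, and the clone B10, made with the guide sg6. Each line had 3 polyA and 3 rRNA-depleted libraries, so n = 3 counts libraries of 1 line or 1 clone, and nothing in the labels says that they came from separate cultures. What differs between a clone and WT apart from *Atrx* cannot be told apart from the knockout.

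The polyA libraries held about 27544800 to 80772100 counts for WT, 161037000 to 235346000 for sg5 and 58918700 to 71896900 for sg6, and the rRNA-depleted libraries 20135300 to 33187100 counts. The polyA counts of both clones exceed the average read number that the paper gives per polyA sample, and the sources used here do not say why. Floors and counting intervals below take these counts as reads. *Atrx* RNA in CPM (counts scaled to library size) was 300.3 ± 26.0 in WT, with 127 ± 12.2 in sg5 and with 131 ± 9.68 in sg6 (SD, n = 3) in the polyA libraries, and all 6 KO libraries lay below all 3 WT libraries in both kinds of library. All 11 markers of mesenchymal progenitors were detected in every line, *Thy1* at the lowest level in sg5 (0.307 CPM, against 0.997 in WT and 134 in sg6). Of 5 myoblast markers, *Pax7*, which defines muscle stem cells, was at 0 in every library. The other 4 were detected in the polyA libraries of every line. In WT they were at 5.99 (*Des*), 0.827 (*Chrna1*), 0.232 (*Mymk*) and 0.0686 CPM (*Cdh15*). In the rRNA-depleted set, sg5 replicate 2 held higher levels of *Mrtfa*, *Mrtfb* and *Mef2d* than any of the other 8 libraries, and WT replicate 3 held the highest level of *Mef2a* and *Mef2c*; results that rest on them are also given without both.

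The myogenic regulatory factors are basic helix-loop-helix proteins that bind E-boxes together with ubiquitous E proteins. MYOD and MYF5 commit progenitors to the skeletal muscle lineage and myogenin drives their terminal differentiation, and MYOD is known for converting this very cell line to muscle when it is expressed there. MEF2 proteins bind an A/T-rich site in muscle genes, cooperate with the myogenic factors and are held in check by class IIa histone deacetylases. SRF binds CArG boxes and takes its coactivators by context: myocardin in smooth and cardiac muscle, and the myocardin-related factors *Mrtfa* and *Mrtfb*, which are released from globular actin when actin polymerizes, in most mesenchymal cells.

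Promoter sequence, from 250 bases before to 50 bases after the start of a transcript, was present for 8 of the 10 genes, with 13 promoters in all from RefSeq (GRCm38.p6, the assembly of mm10), and none for *Myod1* and *Myocd*. The 4 shown belong to *Myog*, the 1 of both called members that had a promoter sequence, the factor common to the whole SRF branch, and both members that rose in the polyA libraries of the clones. Capitals mark E-boxes (CANNTG) in *Myog* and *Mrtfb* and CArG boxes in *Srf*, searched on both strands, and the *Mef2d* promoter held none of these and no MEF2 site.
*Myog*, chr1:134289754-134290053, plus strand: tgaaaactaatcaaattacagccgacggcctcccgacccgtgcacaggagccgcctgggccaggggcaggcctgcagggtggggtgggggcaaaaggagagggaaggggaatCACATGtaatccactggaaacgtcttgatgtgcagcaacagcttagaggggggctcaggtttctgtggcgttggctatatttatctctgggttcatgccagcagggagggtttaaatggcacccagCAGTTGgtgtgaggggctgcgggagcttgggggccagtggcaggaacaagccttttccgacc
*Srf*, chr17:46556113-46556412, minus strand: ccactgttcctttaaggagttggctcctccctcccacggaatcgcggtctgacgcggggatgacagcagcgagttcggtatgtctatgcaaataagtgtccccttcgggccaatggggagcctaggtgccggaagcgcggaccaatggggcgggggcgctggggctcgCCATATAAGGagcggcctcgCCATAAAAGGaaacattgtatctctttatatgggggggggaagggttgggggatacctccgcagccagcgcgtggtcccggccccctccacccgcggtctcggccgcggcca
*Mrtfb*, chr16:13256231-13256530, plus strand: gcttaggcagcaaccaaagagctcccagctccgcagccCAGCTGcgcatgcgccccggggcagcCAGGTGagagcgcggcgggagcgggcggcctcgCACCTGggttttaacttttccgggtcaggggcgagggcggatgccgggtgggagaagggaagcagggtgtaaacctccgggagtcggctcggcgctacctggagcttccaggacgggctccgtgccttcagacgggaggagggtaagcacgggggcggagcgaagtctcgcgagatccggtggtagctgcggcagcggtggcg
*Mef2d*, chr3:88142122-88142421, plus strand: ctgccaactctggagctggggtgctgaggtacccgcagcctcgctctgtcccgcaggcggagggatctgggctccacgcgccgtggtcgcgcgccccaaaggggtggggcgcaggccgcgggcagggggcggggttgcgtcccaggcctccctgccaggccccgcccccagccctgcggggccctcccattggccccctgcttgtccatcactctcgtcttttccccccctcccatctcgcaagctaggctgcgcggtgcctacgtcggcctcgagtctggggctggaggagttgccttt
Among 32851 promoters of the same length, 72.3% held an E-box, 1.63% a CArG box and 3.19% a MEF2 site, so the E-boxes of *Myog* and *Mrtfb* are common letters and the pair of CArG boxes in *Srf* is not. MEF2 sites were searched only as YTAWWWWTAR (Y is C or T, W is A or T, R is A or G). A near match, such as ctatatttat in the *Myog* promoter, was therefore not counted. The *Mef2a* promoter (chr7:67372809-67373108, minus strand) and another promoter of *Mrtfb* (chr16:13358171-13358470, plus strand) held 1 MEF2 site each. These matches describe the sequence and say nothing of binding.

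**Figure D1:**
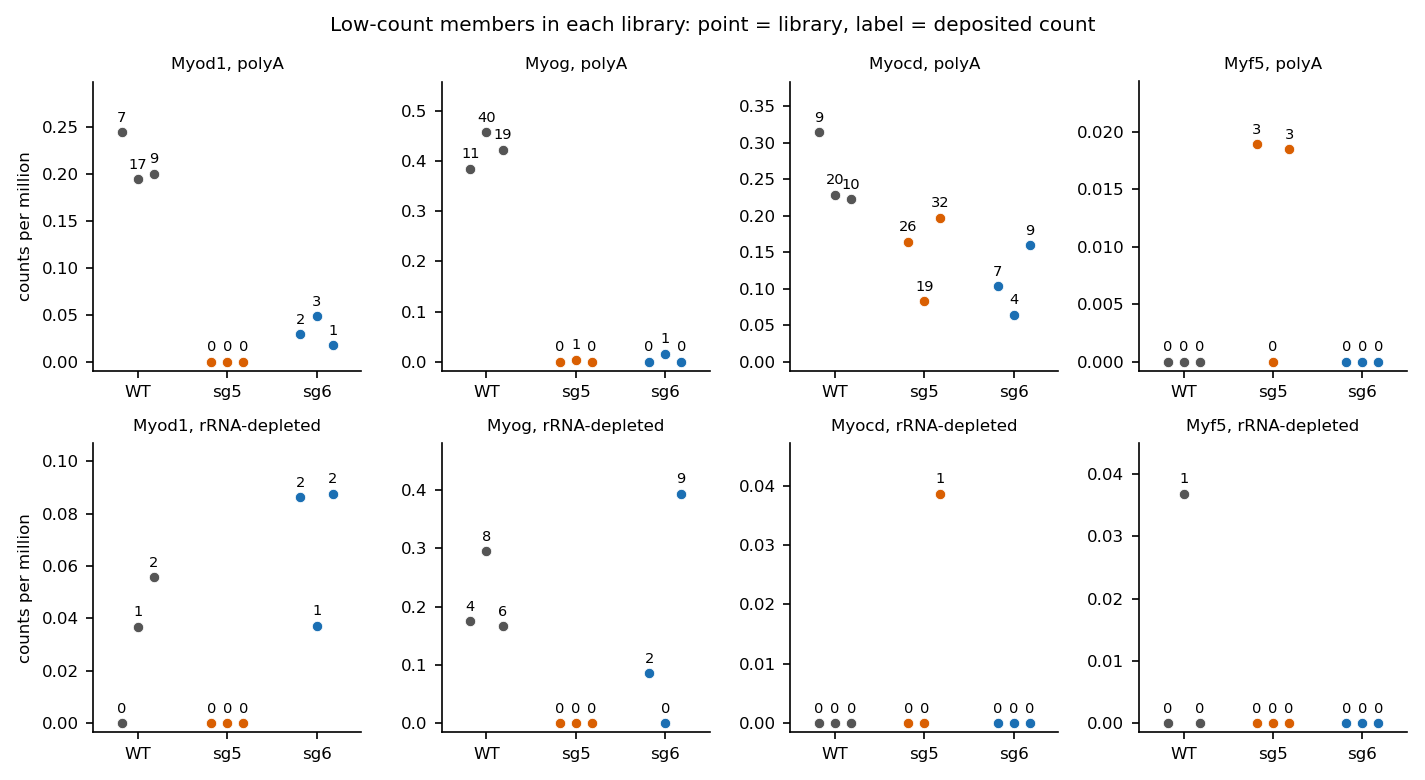
Levels of Myod1, Myog, Myocd and Myf5 in CPM (vertical axis) in WT, sg5 and sg6, polyA libraries above and rRNA-depleted libraries below. Each point is a library and its label is the deposited count. Myog and Myod1 were detected in all 3 polyA libraries of WT and were at or near 0 in those of both clones.

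Myogenic factors were near the limit of detection in these cells, and in the polyA libraries *Myog* and *Myod1* fell further in both clones. *Myog* (chr1:134290004-134292548) held 11, 40 and 19 reads in the 3 polyA libraries of WT, 0, 1 and 0 in sg5, and 0, 1 and 0 in sg6. That is 0.421 ± 0.0367 CPM in WT against 0.00145 and 0.00536 CPM in the clones, with no overlap between WT and either clone. Over the summed reads, scaled for depth, *Myog* was 239-fold lower in sg5 (95% counting interval 41.5 to 9574) and 80.9-fold lower in sg6 (14.1 to 3242). Each ratio rests on a single read in the clone. In the edgeR quasi-likelihood fit across all genes, *Myog* passed the threshold in both clones, with adjusted p = 4.04e-05 for sg5 and 0.000193 for sg6.

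*Myod1* (chr7:46376474-46379092), the lineage determination factor, held 7, 17 and 9 reads in WT, 0, 0 and 0 in sg5, and 2, 3 and 1 in sg6 in the polyA libraries. The 3 groups do not overlap, and sg5 was at 0 although its libraries held the most deposited counts of the set. Set against a floor of 3 counts per library, the sg5 level of *Myod1* was at least 12.6-fold below WT (adjusted p = 0.000216). In sg6 it was 6.36-fold lower by the summed reads (counting interval 2.63 to 18.6), and the edgeR log2 fold change was −2.65 (SE 0.46, adjusted p = 0.00462). Between the clones, sg5 was called lower than sg6 in edgeR, with adjusted p = 0.0262. The sg6 mean (0.0319 CPM) was 1.89-fold the sg5 floor (0.0168 CPM) but below the sg6 floor (0.0486 CPM), so it sets no lower bound on the fold. That call between the clones was lost when any of 7 of the 9 libraries was left out (WT replicate 2, or any library of either clone), with adjusted p up to 0.115. It sets 0 reads in sg5 against 6 reads in sg6.

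*Myf5* (chr10:107482908-107486927), which acts beside *Myod1* in early commitment, was not detectable at this depth. It had 0 reads in the 3 WT and 3 sg6 polyA libraries and 3, 0 and 3 in sg5, too few to pass the filter on low counts. In WT a count of 0 allows up to 0.0686 CPM, the mean of the 3 floors, so the sg5 level of 0.0125 CPM lies below what the WT libraries could show.

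*Myocd* (chr11:65173608-65269989), the coactivator of the smooth and cardiac muscle programs, was as low as the myogenic factors. Its polyA reads were 9, 20 and 10 in WT, 26, 19 and 32 in sg5, and 7, 4 and 9 in sg6. In CPM, WT (0.255 ± 0.0514) lay above every library of sg5 (0.148 ± 0.0589) and of sg6 (0.109 ± 0.0480). The log2 fold changes were −0.76 (SE 0.40, adjusted p = 0.195) in sg5 and −1.19 (SE 0.47, adjusted p = 0.0870) in sg6, and neither passed. The counting intervals of the fold were 1.15 to 2.57 lower in sg5 and 1.28 to 4.08 lower in sg6, which cover counting error only.

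Reads of 3 of these 4 genes were almost absent after rRNA depletion. *Myod1* had 0, 1 and 2 reads in WT, 0 in every sg5 library and 2, 1 and 2 in sg6; *Myf5* had 1 read and *Myocd* 1 read in all 9 libraries together. *Myog* had 4, 8 and 6 reads in WT, 0, 0 and 0 in sg5, and 2, 0 and 9 in sg6. For *Myog*, sg5 lay below WT in every library and was at least 1.60-fold lower, whereas sg6 overlapped WT (1.39-fold lower, counting interval 0.621 to 3.25) because sg6 replicate 3 held more reads than any WT library. The clones overlapped for *Myog* here, since sg6 replicate 2 was at 0 as well. None of the 4 passed the filter on low counts, and without that filter *Myog* in sg5 had an unadjusted p of 0.000952 and an adjusted p of 0.206. For *Myog* in sg6, the log2 fold change in the polyA libraries minus that in the rRNA-depleted libraries was −5.39 (SE 1.37), with an unadjusted p of 0.00162 and an adjusted p of 0.240.

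**Figure D2:**
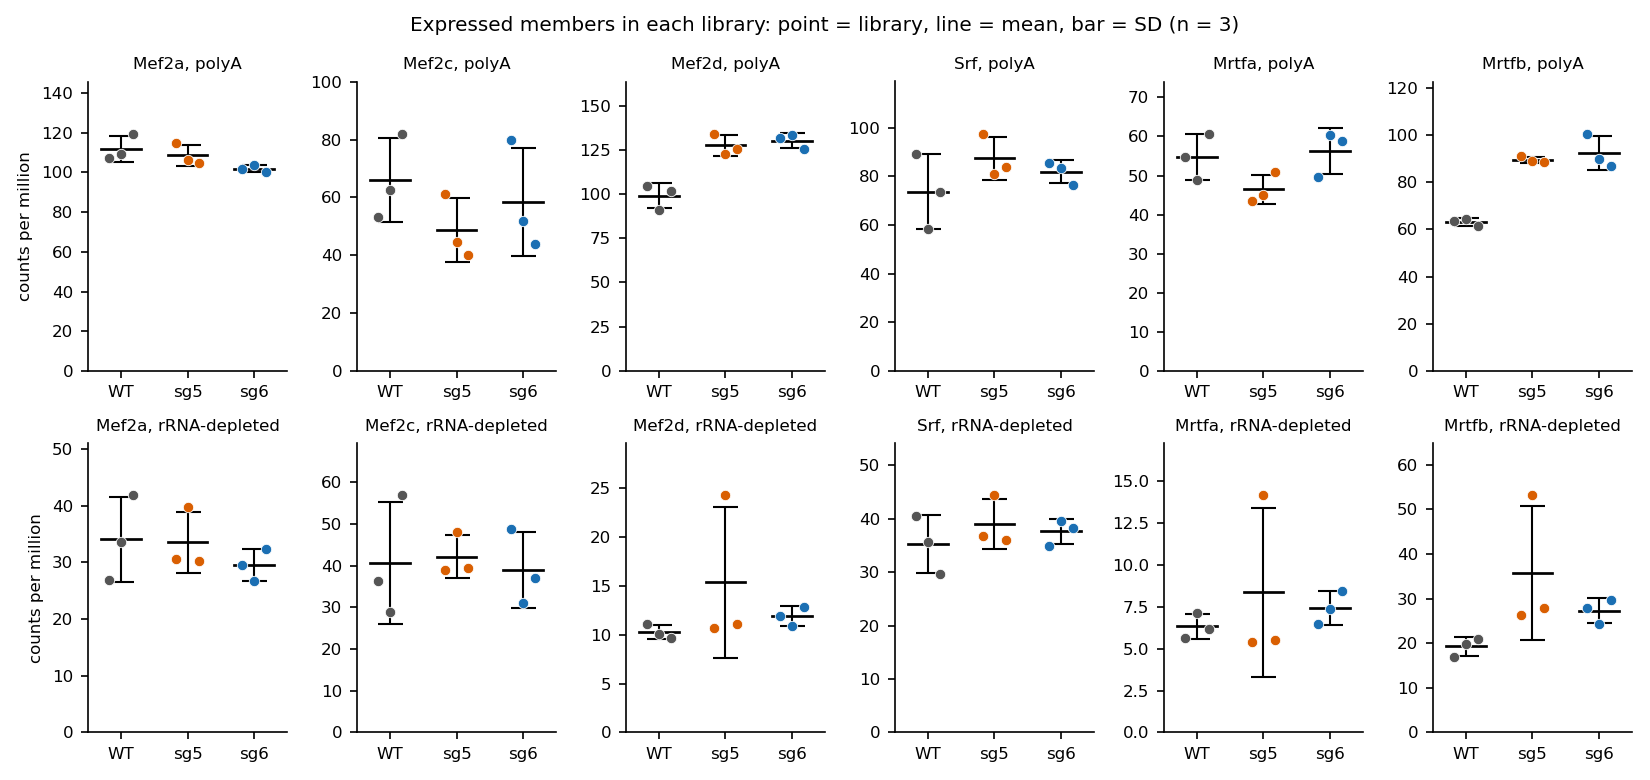
Levels of Mef2a, Mef2c, Mef2d, Srf, Mrtfa and Mrtfb in CPM (vertical axis) in WT, sg5 and sg6, polyA libraries above and rRNA-depleted libraries below. Points are libraries, lines are means and bars are SD (n = 3); in the polyA libraries all 6 KO points of Mef2d and Mrtfb lie above the 3 WT points.

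The other 6 members were well expressed, and their changes were small. *Mef2d* (chr3:88141941-88172091), the MEF2 form found in most tissues, was at 105, 91.2 and 102 CPM in the polyA libraries of WT, at 134, 123 and 126 in sg5, and at 132, 133 and 125 in sg6. No KO library reached down to the WT range. *Mef2d* rose 1.29-fold in sg5 (log2 0.36, SE 0.08, adjusted p = 0.00767) and 1.31-fold in sg6 (log2 0.39, SE 0.08, adjusted p = 0.00433); both are smaller than the log2 fold change of 1 that the study asks of a call. Adjusted p stayed below 0.05 in both clones with any of the 9 libraries left out, with log2 fold changes of 0.30 to 0.41 and 0.33 to 0.44. An opposite-strand gene covers 8.87% of its exon length, and the strand setting of the counting is not given in the sources used here.

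*Mef2a* and *Mef2c* did not pass in either clone. *Mef2a* (chr7:67231163-67376456) was at 107, 109 and 119 CPM in WT, 115, 106 and 105 in sg5, and 101, 104 and 100.1 in sg6. All sg6 values lay just under the WT values, and the log2 fold change was −0.14 (95% interval −0.30 to 0.02, adjusted p = 0.179), against −0.04 (−0.20 to 0.12) in sg5. *Mef2c* (chr13:83504017-83667079), needed in heart and vessel development, was the most variable of the family. Its WT values of 53.3, 62.7 and 82.0 CPM overlapped those of sg5 (61.2, 44.7 and 40.2) and of sg6 (79.7, 51.7 and 44.0). The log2 fold changes were −0.44 (95% interval −0.9998 to 0.12) and −0.18 (−0.74 to 0.39).

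As a share of the 3 MEF2 members, per kilobase of exon, *Mef2d* made up 62.0%, 57.2% and 56.0% in the WT polyA libraries, 65.7%, 67.0% and 68.4% in sg5, and 64.8%, 68.3% and 68.5% in sg6. The KO shares were all above the WT shares. The size of the share rests on the exon lengths used, 5985 bases for *Mef2d* against 14681 for *Mef2a* and 15715 for *Mef2c*. In CPM without that scaling, the WT mean of *Mef2a* (111.9) was above that of *Mef2d* (99.1). After rRNA depletion the share was 19.9% to 30.9% in WT, with 28.1% to 41.3% in sg5 and with 28.0% to 32.5% in sg6, and the groups overlapped. Without WT replicate 3 and sg5 replicate 2 the order of WT and sg5 turned, with 30.9% and 29.0% in WT above 28.1% and 28.9% in sg5.

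*Mrtfb* (chr16:13256056-13417529) had the lowest adjusted p of the 6 expressed members in both clones. Its polyA levels were 63.7, 64.2 and 61.3 CPM in WT, 90.9, 88.9 and 88.5 in sg5, and 101, 89.8 and 86.9 in sg6. The lowest KO library stood well above the highest WT library. *Mrtfb* rose 1.42-fold in sg5 (log2 0.50, SE 0.07, adjusted p = 0.00111) and 1.47-fold in sg6 (log2 0.55, SE 0.07, adjusted p = 0.000583). It kept adjusted p below 0.05 with any library left out. Centred on the median of the other genes of chromosome 16, the change in sg5 was 0.40.

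*Mrtfa* (chr15:81012281-81190736), its close relative, did not pass. *Mrtfa* was at 54.8, 48.9 and 60.7 CPM in WT, 43.6, 44.9 and 50.8 in sg5, and 49.6, 60.5 and 58.9 in sg6, and both clones overlapped WT. The log2 fold changes were −0.24 (95% interval −0.49 to 0.01, adjusted p = 0.144) and 0.04 (−0.21 to 0.29, adjusted p = 0.820). Centred on the median of the genes of chromosome 15, the change in sg5 was −0.08. The clones differed from each other by −0.28 (SE 0.11), with an unadjusted p of 0.0321 and an adjusted p of 0.233.

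*Srf* (chr17:46546838-46558267) itself was at 89.2, 58.6 and 73.4 CPM in WT, 97.6, 80.9 and 83.7 in sg5, and 85.7, 83.6 and 76.5 in sg6. The WT libraries were spread over the whole range of sg6. Its log2 fold changes were 0.25 (95% interval −0.08 to 0.57) and 0.15 (−0.17 to 0.48), so a log2 change of 1 in either direction lay outside both intervals.

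**Figure D3:**
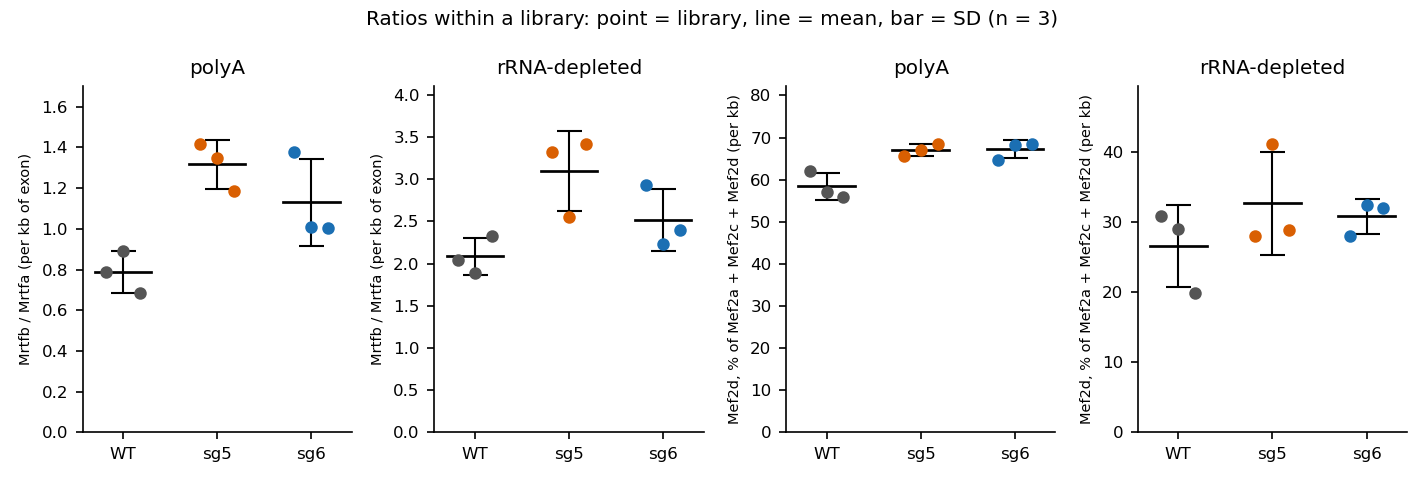
Ratio of Mrtfb to Mrtfa and share of Mef2d among Mef2a, Mef2c and Mef2d, both per kilobase of exon, in WT, sg5 and sg6 for both kinds of library. Points are libraries, lines are means and bars are SD (n = 3); in the polyA libraries the WT ratios of Mrtfb to Mrtfa lie below 1 and the KO ratios above 1.

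Both coactivators can be set against each other within a library. Per kilobase of exon, the ratio of *Mrtfb* to *Mrtfa* was 0.790, 0.892 and 0.687 in the WT polyA libraries. It was 1.42, 1.35 and 1.19 in sg5 and 1.38, 1.01 and 1.003 in sg6. Per kilobase, *Mrtfa* was the higher of the pair in every WT library and *Mrtfb* in every KO library, though by little in sg6 replicates 2 and 3. Which was the higher rests on the exon lengths used, 6114 bases for *Mrtfa* and 8990 for *Mrtfb*. In CPM without that scaling, *Mrtfb* was above *Mrtfa* in every WT polyA library too. After rRNA depletion *Mrtfb* was the higher in all 9 libraries, with ratios of 1.89 to 2.32 in WT, with 2.55 to 3.42 in sg5 and with 2.23 to 2.93 in sg6, and sg6 overlapped WT there. Without WT replicate 3 and sg5 replicate 2 the ratios were 2.04 and 1.89 in WT against 3.32 and 3.42 in sg5.

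No member passed the threshold in any comparison of rRNA-depleted libraries. *Mrtfb* was at 16.9, 19.9 and 21.0 CPM in WT, 26.3, 53.1 and 27.8 in sg5, and 27.9, 24.2 and 29.8 in sg6, again with every KO library above every WT library. Its log2 fold changes were 0.89 (SE 0.24, adjusted p = 0.0581) in sg5 and 0.50 (SE 0.24, adjusted p = 0.416) in sg6. Without WT replicate 3 and sg5 replicate 2 they were 0.55 (adjusted p = 0.256) and 0.57 (adjusted p = 0.225). Replicate 2 of sg5 was picked for its high levels, *Mrtfb* among them, so leaving it out lowers the sg5 value by that choice. Without sg5 replicate 1 it was 1.102 and without sg5 replicate 3 it was 1.06, and both passed the threshold.

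*Mef2d* was at 11.1, 10.1 and 9.63 CPM in WT, 10.7, 24.3 and 11.1 in sg5, and 11.9, 10.9 and 12.9 in sg6. Only sg5 replicate 2 stood out. Its log2 fold changes were 0.58 (SE 0.27, adjusted p = 0.304) and 0.21 (adjusted p = 0.841), and without WT replicate 3 and sg5 replicate 2 they were 0.04 and 0.17.

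Like *Mef2d*, the other 4 expressed members overlapped WT in both clones. *Mef2a* lay between 26.7 and 41.9 CPM, *Mef2c* between 28.9 and 56.9, *Srf* between 29.6 and 44.4, and *Mrtfa* between 5.39 and 14.2 over the 9 rRNA-depleted libraries. Of the 7 members with a value in the joint fit of both kinds of library, 0 had a clone effect that differed between the kinds with adjusted p below 0.05 in edgeR, and DESeq2 also gave 0. At an unadjusted p below 0.05 the count was 0 for sg5 and 1, *Myog*, for sg6. Of all 14945 genes in that fit, 0.435% passed for sg5 and 0.161% for sg6.

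**Figure D4:**
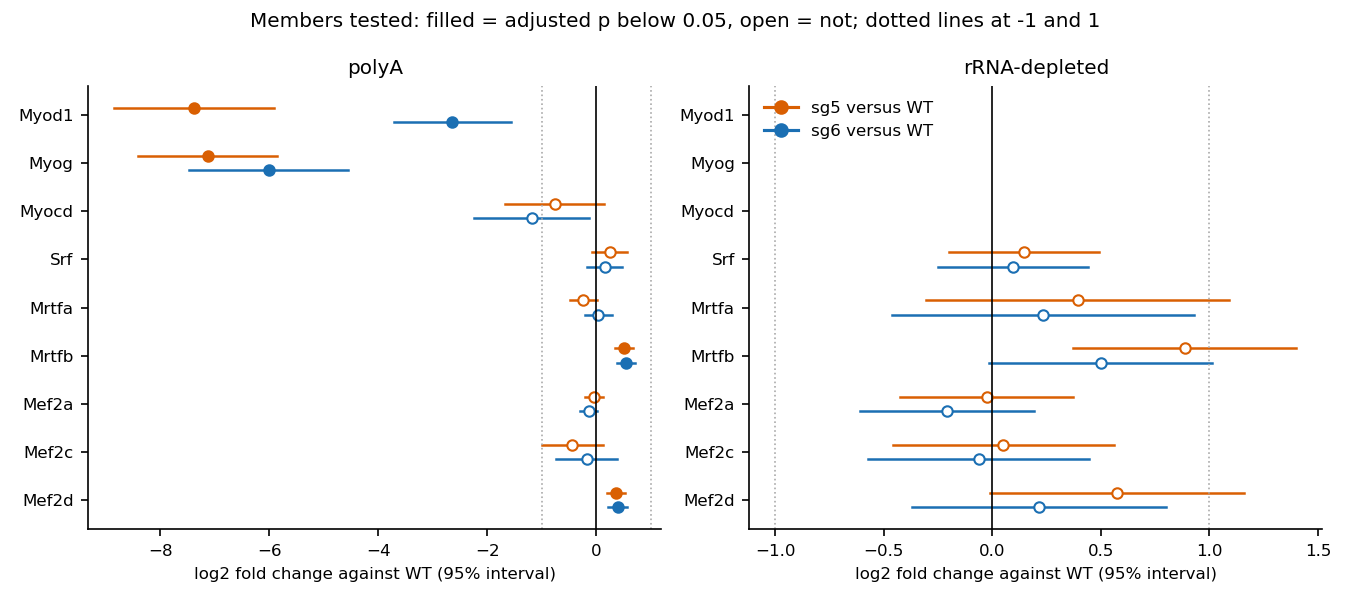
Log2 fold change of each member in sg5 versus WT and sg6 versus WT, with bars for the 95% interval of the edgeR fit, in polyA and rRNA-depleted libraries; filled points have adjusted p below 0.05 and dotted lines mark 1 and −1. Only Myod1 and Myog lie beyond a dotted line with filled points, Myf5 was not tested, and Myod1, Myog and Myocd have no value in the rRNA-depleted panel because they did not pass the filter on low counts.

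Counted against all genes, 2 of the 9 members tested in the polyA libraries passed the call (a log2 fold change beyond 1 with adjusted p below 0.05) in sg5 and the same 2, *Myod1* and *Myog*, in sg6, both lower. Of all 15480 genes tested, 10.1% passed in sg5, against 11.2% in sg6. With adjusted p alone, 4 of 9 members passed in each clone, against 27.0% of all genes in sg5 and 30.7% in sg6, and these were *Myod1* and *Myog*, lower, and *Mef2d* and *Mrtfb*, higher. Both comparisons share the WT libraries. Between the clones 1 member, *Myod1*, passed, against 2.61% of genes with the size threshold and 4.79% without it. In the rRNA-depleted libraries 0 of the 6 members tested passed, against 7.35% of the 13303 genes tested in sg5, 5.75% in sg6 and 1.48% between the clones. With adjusted p alone the count was again 0 of 6, against 10.7%, 7.58% and 1.57% of genes. An unadjusted p below 0.05 was reached by 1 of 6 in sg5 (*Mrtfb*), 0 in sg6 and 0 between the clones, and DESeq2 called 0 in each.

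Per kilobase of exon, *Srf* was the highest member in every group of both kinds of library (25.5 CPM per kb in the WT polyA libraries), followed there by *Mef2d* at 16.6. Next came *Mrtfa* at 8.97 and *Mef2a* at 7.62, whose libraries overlapped, then *Mrtfb* at 7.01 and *Mef2c* at 4.20. *Myog* (0.282), *Myod1* (0.114) and *Myocd* (0.0397) were far below these. The order rests on the exon lengths used. In CPM, the WT polyA mean of *Srf* (73.7) was below those of *Mef2a* (111.9) and *Mef2d* (99.1). In sg5, *Mrtfb* (9.95) stood above *Mrtfa* (7.59) with no overlap, and in sg6 *Mrtfb* (10.3) and *Mrtfa* (9.21) overlapped. For WT after rRNA depletion the order after *Srf* (12.2) was *Mef2c* (2.59), *Mef2a* (2.32) and *Mrtfb* (2.15), which overlapped their neighbours, then *Mef2d* (1.72) and *Mrtfa* (1.03). *Mef2d* and *Mrtfa* thus ranked lower among the members in rRNA-depleted than in polyA libraries. The kinds also differed in counting tool and sequencing provider, which cannot be told apart from the library kind here.

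**Figure D5:**
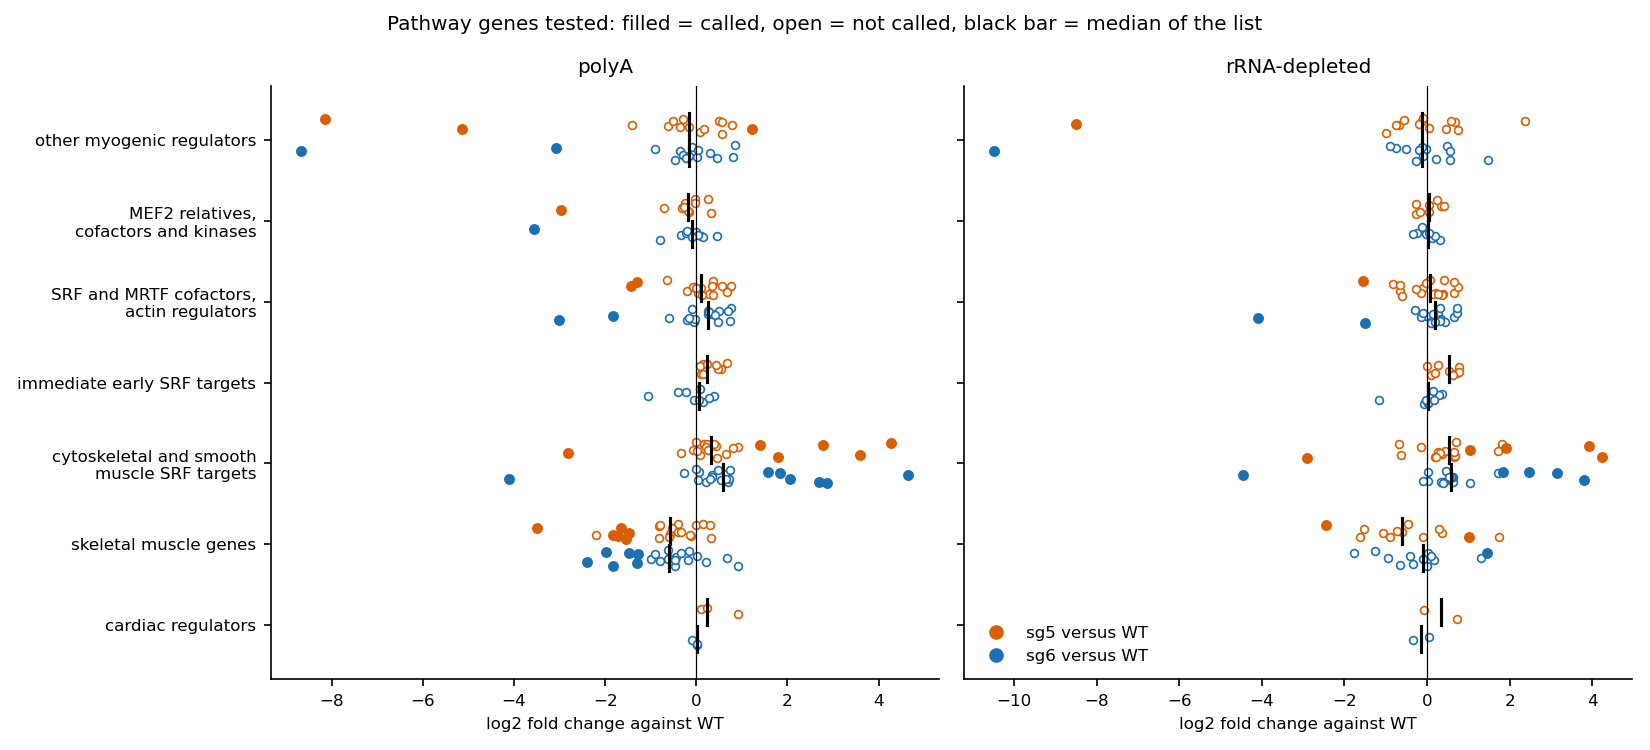
Log2 fold change against WT (horizontal axis) of every gene tested in 7 lists of partners and targets, sg5 in orange and sg6 in blue, polyA on the left and rRNA-depleted on the right. Each point is a gene, filled where it was called, and black bars are list medians; in the polyA panel the called skeletal muscle genes all lie below 0 and the called cytoskeletal SRF targets above 0 except Mylk.

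The partners and targets of these factors were read from lists of textbook genes. The calls in each list stand beside 10.1% of all genes called in sg5 and 11.2% called in sg6 in the polyA libraries, and beside 7.35% and 5.75% after rRNA depletion. Of 20 other myogenic regulators, 15 could be tested in the polyA libraries: 1 was higher and 2 lower in sg5, and 0 were higher and 2 lower in sg6, where 2 of 15 is near the 11.2% of all genes. The median log2 fold change was −0.16 in sg5 and −0.15 in sg6, against −0.0024 and −0.0061 over all genes tested. *Eya1*, the phosphatase and coactivator that works with homeodomain factors upstream of the myogenic factors, held 382, 1525 and 742 reads in WT, 7, 12 and 11 in sg5, and 3, 1 and 3 in sg6 (log2 −8.14, SE 0.25, and −8.67, SE 0.29). *Eya1* in the rRNA-depleted libraries held 135, 199 and 276 reads in WT, 0, 1 and 0 in sg5, and 0 in every sg6 library, where it was at least 56.2-fold lower. *Mymk*, the myomaker membrane protein needed for myoblast fusion, fell from 7, 24 and 8 reads in WT to 1, 0 and 2 in sg5 and 2, 2 and 1 in sg6 (adjusted p = 0.000244 and 0.00302). The gene called higher in sg5 was *Mdfi*, an inhibitor of myogenic factors, named here after its value was seen (log2 1.23, SE 0.30, adjusted p = 0.0161, beside 0.04 in sg6). The difference of *Mdfi* between the clones did not pass (log2 1.19, SE 0.30, adjusted p = 0.0566), and after rRNA depletion its log2 fold changes of 2.38 in sg5 and 1.48 in sg6 did not pass (adjusted p = 0.165 and 0.568).

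Several skeletal muscle genes, which were low in WT, were lower still in the clones. Of 32, 22 could be tested in the polyA libraries, and 6 were lower and 0 higher in each clone, 5 of them in both. The remaining gene was *Casq2* in sg5 (log2 −1.53) and *Tnnt2* in sg6 (log2 −1.31), named after their values were seen. The median log2 fold change was −0.58 in sg5 and −0.61 in sg6. *Myh3*, the embryonic myosin heavy chain, went from 0.448 CPM in WT to 0.0375 and 0.123 in sg5 and sg6 (log2 −3.50, SE 0.42, and −1.83, SE 0.42). The fast troponins *Tnnt3* (log2 −1.82 and −1.98) and *Tnni2* (−1.71 and −2.40), the giant sarcomere protein *Ttn* (−1.48 and −1.49) and the fast regulatory light chain *Mylpf* (−1.64 and −1.28) also fell in both. After rRNA depletion 13 of the list could be tested. Their median log2 fold change was −0.61 in sg5 and −0.09 in sg6, against 0.08 and 0.04 over all genes. *Myh3* was not among the 13, the other 4 of the 5 genes above were not called, and *Ttn* stood at 2.87, 2.71 and 2.94 CPM in WT, sg5 and sg6. *Tnnc1*, the slow and cardiac troponin C, was the only gene of the list called in both clones there, and it was higher, while *Tnnt2* was called lower in sg5 (log2 −2.46, SE 0.63, adjusted p = 0.0470). The log2 fold change of *Tnnc1* was 1.01 in sg5 (SE 0.26, adjusted p = 0.0429) and 1.45 in sg6 (SE 0.26, adjusted p = 0.00564). The summed level of the 5 myoblast markers in the polyA libraries was 5.52 to 8.14 CPM in WT, with 4.46 to 5.21 in sg5 and with 4.76 to 6.91 in sg6. Most of it was *Des*, at a mean of 5.99, 4.15 and 4.80 CPM in WT, sg5 and sg6. The part of these markers in these results was not tested. In bulk RNA, fewer cells with a muscle program and less RNA per cell cannot be told apart.

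Among 11 MEF2 relatives, cofactors and kinases, 1 passed in the polyA libraries, in both clones, which is near the share of all genes called (10.1% and 11.2%). This was *Mamstr*, a coactivator that binds MEF2, at 4, 26 and 33 reads in WT, 5, 9 and 13 in sg5, and 0, 3 and 3 in sg6 (log2 −2.97, SE 0.64, adjusted p = 0.00854, and −3.57, SE 0.83, adjusted p = 0.0106). The class IIa deacetylases of the list were not called. The median log2 fold change of the list was −0.18 in sg5 and −0.09 in sg6, and 0 of the 8 tested in the rRNA-depleted libraries passed in either clone, by edgeR, by DESeq2 or at an unadjusted p below 0.05.

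Several cytoskeletal and smooth muscle targets of SRF were higher in the clones. Of 24 cytoskeletal and smooth muscle SRF targets, 22 could be tested in the polyA libraries: 5 were higher and 1 lower in sg5, and 6 were higher and 1 lower in sg6. Of these, 5 were higher and 1 lower in both clones. The median log2 fold change was 0.32 in sg5 and 0.59 in sg6. After rRNA depletion, 4 of 20 were higher and 1 lower in each clone, with medians of 0.54 and 0.57 against 0.08 and 0.04 over all genes. *Fhl1*, a LIM-domain protein of muscle, rose from 1.72 ± 0.313 CPM in WT to 34.0 ± 8.75 and 44.3 ± 2.99 in sg5 and sg6 (log2 4.27, SE 0.22, and 4.65, SE 0.23). The actins of smooth muscle rose as well, *Actg2* from 2.29 CPM in WT to 27.2 and 16.6 in sg5 and sg6, and *Acta2* from 371 CPM to 971 and 1103. *Ccn2*, a matricellular growth factor that YAP and TGF-beta also control, rose by 2.78 and 2.70 on the log2 scale, and *Tagln* (transgelin) by 1.79 and 1.83. *Mylk*, the myosin light chain kinase of smooth muscle, fell from 49.1 CPM in WT to 6.97 and 2.84 in sg5 and sg6 (log2 −2.82, SE 0.29, and −4.11, SE 0.31). *Fhl1*, *Actg2* and *Acta2* were also called higher, and *Mylk* lower, in both clones in the rRNA-depleted libraries. *Ccn2* (log2 1.81 and 1.72, adjusted p = 0.120 and 0.187) and *Tagln* (log2 1.73 and 1.05, adjusted p = 0.0673 and 0.386) were not called there in sg5 or sg6. Replicate 1 was the lowest sg5 library for both, at 50.2 CPM for *Ccn2* (WT 37.8 to 91.3) and 1.92 for *Tagln* (WT 1.95 to 2.85). The lowest sg6 library lay within the WT range for *Ccn2* (88.4 CPM) and above it for *Tagln* (3.99 CPM). The summed smooth muscle markers, of which *Actg2* is part, were 92.4 to 105 CPM in WT, with 111 to 132 in sg5 and with 93.9 to 126 in sg6 in the polyA libraries, and their part in these results was not tested. Of these 5 markers, 4 could be tested there, and only *Actg2* was called, higher in both clones.

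The immediate early targets, which SRF drives with ternary complex factors of the ETS family, held no called gene. Of 9 tested, 0 passed in either clone in the polyA libraries by edgeR or DESeq2, 1 had an unadjusted p below 0.05 in each clone, and the medians were 0.24 and 0.06. In the rRNA-depleted libraries 0 of 9 passed in edgeR, 3 in sg5 and 1 in sg6 had an unadjusted p below 0.05, and DESeq2 called 1 in sg6. *Fos*, named after its value was seen, was at 174 CPM in WT, with 279 in sg5 and with 228 in sg6 (log2 0.68, SE 0.20, adjusted p = 0.0355, and 0.39, SE 0.20, adjusted p = 0.182). Among 18 cofactors and upstream regulators tested, 2 were lower in both clones and 0 higher, again near the share of all genes called. These were *Csrp2*, a LIM-domain partner of SRF, at 87.2 CPM in WT, with 35.3 in sg5 and with 24.7 in sg6, and *Hopx*, a homeodomain protein that restrains SRF, at 1.13, 0.421 and 0.140 CPM (log2 −1.43, SE 0.19, and −3.01, SE 0.23). *Csrp2* was also called lower in both clones in the rRNA-depleted libraries, and *Hopx* in sg6 only. Of 6 cardiac regulators, 3 could be tested in the polyA libraries and 0 were called in either clone by edgeR or DESeq2, with an unadjusted p below 0.05 for 1 in sg5 and 0 in sg6.

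By the correlation of log2 CPM over the 9 libraries of each kind, the genes whose pattern was most like that of *Myog* were *Kif21a* (r = 0.906 in polyA and 0.850 in rRNA-depleted libraries), *Pard3b* (0.934 and 0.841) and *Birc3* (0.830 and 0.855), out of 10821 candidates. For *Myod1* they were *Maf1* (0.737 and 0.781), *Gm2a* (0.735 and 0.874) and *Zmat1* (0.720 and 0.822). The libraries fall into 3 lines and these members have few reads in the rRNA-depleted set, so the values describe likeness between lines and no p is given.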

How the data were processed

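RNA of C3H/10T1/2 cells was measured in 18 libraries, 9 polyA-selected and 9 rRNA-depleted. For polyA, the authors ran Salmon (version 0.8.2 in the submitters' processing notes) on mm10 known genes with tximport, and the deposited expected counts per gene are whole numbers without normalization. For rRNA depletion, the authors aligned reads with STAR (2.27.10a, as written) and counted genes and transposable element (TE) loci with TElocal, and the deposited counts are raw; the strand setting is not given in the sources used here. Counting could therefore mix overlapping genes on opposite strands.

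Each table was filtered (filterByExpr), scaled by TMM over genes and TE loci, and fitted in edgeR 4.0.16 (R 4.3.3) by quasi-likelihood with all 9 libraries of the 3 lines. The Benjamini-Hochberg adjustment ran over all features tested, and genes were called at a log2 fold change beyond 1 with adjusted p below 0.05. SE is the log2 fold change divided by the root of F. CPM used the scaled library sizes, which include TE loci for rRNA-depleted libraries, and levels per kilobase used exon lengths of GRCm38 gene models. Counting intervals (95%) and the floor of 3 counts per library cover counting error only, and take each deposited count as a separate read. The clone effects of both kinds of library were compared by an interaction term over 14945 genes. In that comparison, library kind cannot be told apart from the counting tool and the sequencing provider. DESeq2 1.42.0, median-of-ratios scaling, no filter, fits of 2 groups, the replicate number as a block, chromosome centring, gene rows alone and each library left out were tried as alternatives. Scripts were tested on simulated data.

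The members and lists were chosen with earlier results of these data known. Besides the members, genes are named when called in both clones in either kind of library, up to 6 per list by the smaller fold change, and the 3 genes most like each called member over both kinds. The p-values measure the spread between libraries of 1 line, which may be technical.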

Additional observations from a re-analysis of the deposited data

Results flagged for a closer look

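The clones differed from each other in the polyA libraries for 3 of the genes named above. *Myod1* had a fitted log2 difference of −4.74 for sg5 minus sg6 (SE 0.87, edgeR adjusted p = 0.0262), a value that depends on the prior count because sg5 had 0 reads. *Hopx* was higher in sg5 than in sg6 by 1.58 on the log2 scale (SE 0.23, adjusted p = 0.00489), with all 3 sg5 libraries above all 3 sg6 libraries, and in the rRNA-depleted libraries the difference was 3.47 (SE 0.96, adjusted p = 0.239), where sg5 held 31, 3 and 3 reads and sg6 1, 1 and 1, so the size rests on sg5 replicate 1. *Mylk* was higher in sg5 than in sg6 by 1.29 (SE 0.28, adjusted p = 0.0343), and by 1.54 (SE 0.40, adjusted p = 0.187) in the rRNA-depleted libraries.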

How the results depend on the processing

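The calls of *Myod1* and *Myog* in both clones in the polyA libraries stood under every alternative run, each left-out library included. With adjusted p alone the members passing were 4 in sg5 and 4 in sg6. The 1 member called between the clones in polyA, *Myod1*, became 0 under the replicate block (adjusted p = 0.0532), 0 with only both clones in the fit (where it was not tested), and 0 to 1 with a library left out. In the rRNA-depleted libraries 0 members became 0 to 1 in sg5 with a library left out: without sg5 replicate 1 or replicate 3, *Mrtfb* was called (log2 1.102 and 1.06), and its adjusted p in sg5 ran from 0.0109 without a filter to 0.256 without WT replicate 3 and sg5 replicate 2. The replicate numbers were not taken as a pairing, since not every pair deviated together: libraries with the same number correlated in 7 of 9 polyA and 8 of 9 rRNA-depleted pairs (r above 0.1), with r from 0.026 to 0.431 and from −0.229 to 0.638, and 5 of 9 libraries in each kind correlated best with their own number. The mean r was 0.260 for the same number and −0.127 for different numbers in polyA, and 0.294 and −0.145 after rRNA depletion. A pairing thus remains possible. Besides *Myod1* between the clones, the replicate block changed the call of *Myocd* in sg6, which passed (log2 −1.30, adjusted p = 0.0346), and took the immediate early targets called in sg6 from 0 to 1 in the rRNA-depleted libraries; it changed no other call or list count given above by over 1.5 times. DESeq2 took the called skeletal muscle genes in sg5 from 2 to 1 there.

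Signs turned only for changes that did not pass. Centring on the chromosome median gave *Mef2c* 0.059 between the clones in polyA and *Srf* −0.015 in rRNA-depleted libraries. After rRNA depletion *Mef2a* in sg5 was 0.032 with DESeq2, 0.034 with median-of-ratios scaling and 0.023 without a filter, and *Mef2c* in sg5 was −0.040 with gene rows alone. The *Myog* difference between library kinds in sg5 was −2.97 in DESeq2 and −0.71 to 0.36 with a library left out. In polyA the left-out ranges were −0.089 to 0.0059 for *Mef2a* in sg5, −0.47 to 0.010 for *Mef2c* in sg6 and −0.046 to 0.12 for *Mrtfa* in sg6. Between the clones they were −2.20 to 1.32 for *Myog*, −0.46 to 0.031 for *Mef2c* and −0.095 to 0.023 for *Mrtfb*. After rRNA depletion they were, in sg5, −0.12 to 0.13 for *Mef2a*, −0.12 to 0.36 for *Mef2c*, −0.067 to 0.30 for *Srf* and −0.23 to 0.66 for *Mrtfa*, and in sg6 −0.23 to 0.26 for *Mef2c* and −0.028 to 0.25 for *Srf*. Between the clones there they were −0.027 to 0.32 for *Mef2c*, −0.13 to 0.56 for *Mef2d*, −0.050 to 0.097 for *Srf*, −0.45 to 0.39 for *Mrtfa* and −0.013 to 0.56 for *Mrtfb*. The cause of these turns was not tested. The set without WT replicate 3 and sg5 replicate 2 was chosen after seeing the data.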

Other observations

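In the polyA libraries the summed level of 5 endothelial markers was 1.36 to 2.04 CPM in WT, with 9.46 to 14.2 in sg5 and with 8.47 to 11.1 in sg6, and the rise was that of *Tek* (0.962 CPM in WT, 11.5 in sg5, 9.33 in sg6). *Pecam1* was called lower in both clones (log2 −1.37, adjusted p = 0.0113, and −1.22, adjusted p = 0.0269), *Cdh5* did not pass, and *Kdr* and *Emcn* were too low to test. The summed level of 5 epithelial markers in WT, sg5 and sg6 was 3.11 to 6.29, 0.897 to 1.71 and 0.355 to 0.868 CPM. The 5 haematopoietic markers summed to 4.19 to 5.52, 3.58 to 4.24 and 3.71 to 4.58 CPM, with *Adgre1* at 0 in all 9 polyA libraries. The 11 mesenchymal progenitor markers summed to 2921 to 3137 CPM in WT, with 3481 to 3750 in sg5 and with 3890.3 to 4366 in sg6. Of these 11, 1 was called higher and 1 lower in sg5, and 3 higher and 0 lower in sg6. Of all genes, 10.1% and 11.2% were called. The sum therefore does not describe each marker.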
